A study of Mus musculus with 2 samples.

Results

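Robo receptors and Slit ligands were examined in single-nucleus RNA-seq of whole mouse retina. The set held 7 genes out of 32227 in the deposited gene table, and each was found by its symbol: the receptors Robo1, Robo2 and Robo3, the ligands Slit1, Slit2 and Slit3, and the cytoplasmic effector Srgap1. Robo3 was selected on its higher level in the Tet tcKO library, so its difference between the libraries is a description and supports nothing. The other members came with it as family or pathway. All 7 were detected in both libraries, and all 7 passed the filter on low values used below, 10 CPM in 1 library or both (CPM is the count of a gene per 1000000 counts of all genes). Robo3 passed that filter through the Tet tcKO library alone.

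The series held 1 Cre- library and 1 Tet tcKO library, both from retinas of C57 BL/6J mice at postnatal day 21. In Tet tcKO animals floxed alleles of Tet1, Tet2 and Tet3, which encode enzymes that oxidise 5-methylcytosine on the way to demethylation, were recombined by Chx10-Cre-GFP. That transgene is active in retinal progenitor cells, so their neuronal and Müller glial progeny carry the deletion, while cells that enter the retina from elsewhere do not. The study describes the transgene as mosaic and bred Cre-positive animals together to counter this. Cre- animals carried no Cre transgene, came from separate Cre- breeders rather than as littermates, and are given as WT in the labels. Nuclei of each genotype came from pooled retinas in 2 dissociations, and the files do not say which nucleus came from which, so each genotype counted as 1 sample without replicates.

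From Cre- retinas 7357 nuclei were available, with 11510585 unique molecular identifiers (UMIs, 1 per captured transcript) in all. From Tet tcKO retinas there were 6766 nuclei and 16590747 UMIs. A nucleus had 1107 UMIs at the median in Cre- and 1836.5 in Tet tcKO. Mitochondrial genes made up 5.47% of UMIs in Cre- and 1.76% in Tet tcKO, and 1 barcode occurred in both libraries. With 1 library per genotype no test was possible, and all intervals below are 95% counting intervals that leave out variation between animals and preparations. Sums over all nuclei also cannot tell a change in cell shares from a change within cells.

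Slits are large secreted proteins that bind Robo receptors on growing axons and migrating neurons, usually as a repellent. Bound receptors recruit Slit-Robo GTPase-activating proteins such as SRGAP1, which act on the small GTPases that shape the actin skeleton. Robo3 is the divergent member: in mammals it does not bind Slits with high affinity, and it is best known for letting commissural axons cross the midline. In the visual system Slit1 and Slit2 with Robo2 are known for guiding retinal ganglion cell (RGC) axons inside the eye and at the optic chiasm.

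Robo3 (ENSMUSG00000032128) is a short gene on the minus strand of chromosome 9, from 37326965 to 37344737 in GRCm39, and spans 17.8 kb. Robo1 (chromosome 16, 72105194 to 72844378, plus strand) and Robo2 (chromosome 16, 73688727 to 75244270, minus strand) span 739 and 1556 kb. Slit1 lies on chromosome 19 from 41588676 to 41732268 (minus strand), Slit2 on chromosome 5 from 48140480 to 48465075 (plus strand) and Slit3 on chromosome 11 from 35011789 to 35602786 (plus strand). Srgap1 lies on chromosome 10 from 121616814 to 121883220 on the minus strand. Slit2 overlaps 1 annotated gene of the table on its own strand and 1 on the other, and Slit3 overlaps 1 on its own strand, so reads of these could be divided with Slit2 and Slit3. No annotated gene overlaps Robo3.

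The window of 250 bases before the start of the canonical transcript, which lies inside the outer bounds of Robo1, Robo2 and Robo3, is shown for the members past 2-fold, Robo3 and Slit3, and for Srgap1, whose window was the richest in CG of the 7. TET enzymes act on methylated C of CG, and each CG is in capitals. The Robo3 window (GRCm39, chr9:37344682-37344931, minus strand) holds 5 CG, the Slit3 window (chr11:35011539-35011788, plus strand) holds 4 and the Srgap1 window (chr10:121883221-121883470, minus strand) holds 35.
Robo3: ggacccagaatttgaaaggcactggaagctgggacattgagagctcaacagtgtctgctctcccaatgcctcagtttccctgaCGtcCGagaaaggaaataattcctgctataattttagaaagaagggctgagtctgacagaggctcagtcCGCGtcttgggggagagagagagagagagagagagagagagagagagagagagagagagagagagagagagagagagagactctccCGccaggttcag
Slit3: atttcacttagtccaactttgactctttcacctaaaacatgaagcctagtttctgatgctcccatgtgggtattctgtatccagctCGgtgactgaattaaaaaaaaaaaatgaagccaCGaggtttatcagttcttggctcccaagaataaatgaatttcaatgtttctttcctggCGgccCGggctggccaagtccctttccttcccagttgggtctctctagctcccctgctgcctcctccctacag
Srgap1: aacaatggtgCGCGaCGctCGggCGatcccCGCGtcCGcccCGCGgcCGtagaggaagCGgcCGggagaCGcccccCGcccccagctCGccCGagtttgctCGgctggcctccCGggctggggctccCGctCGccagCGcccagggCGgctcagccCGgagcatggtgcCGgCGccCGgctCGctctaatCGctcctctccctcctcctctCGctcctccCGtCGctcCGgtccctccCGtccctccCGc
Over 21297 windows of the same length the median was 8 CG with quartiles of 3 and 16. At least as many CG as in Srgap1 were present in 1.58% of windows, against 63.8% for Robo3 and 69.6% for Slit3. Robo1 held 2 CG, Slit1 8, Robo2 16 and Slit2 23. The letters TAATCC, the core that the photoreceptor factor CRX is known to bind, were searched on both strands and occurred 0 times in the 7 windows, against 6.99% of all windows. No methylation was measured in these libraries, so the letters describe the windows only.

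Over all nuclei, the receptor Robo3 was close to absent in Cre- and abundant in Tet tcKO. Cre- nuclei held 58 Robo3 UMIs, or 5.04 CPM, and Tet tcKO nuclei held 3802, or 229 CPM. The log2 ratio of Tet tcKO over Cre- was 5.51 (5.13 to 5.91), the 6th highest of the 11158 genes that passed the filter. This is the difference on which Robo3 was selected.

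The ligand Slit3 was the other member past 2-fold, with 10.2 CPM in Cre- against 29.4 CPM in Tet tcKO. Its log2 ratio was 1.53 (1.24 to 1.84), from 117 and 488 UMIs. Slit1 was at 34.9 and 62.4 CPM with a log2 ratio of 0.84 (0.67 to 1.01) that did not pass 2-fold. Slit2, the ligand best known for repelling RGC axons in the optic nerve and chiasm, was at 418 and 479 CPM, for a log2 ratio of 0.20 (0.14 to 0.25).

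The main axon receptors differed less. Robo2 was at 308 CPM in Cre- against 475 CPM in Tet tcKO with a log2 ratio of 0.63 (0.57 to 0.68). Robo1 was at 362 and 437 CPM, for a log2 ratio of 0.27 (0.22 to 0.33). The effector Srgap1 was at 185 and 192 CPM with a log2 ratio of 0.05 (-0.03 to 0.13). The signs of the Robo1, Slit2 and Srgap1 ratios depended on the processing: with each gene counted once per nucleus they were -0.26, -0.22 and -0.12, and under TMM scaling the Srgap1 ratio was -0.052.

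Past 2-fold there were 2 of 7 members higher in Tet tcKO, Robo3 by choice and Slit3, where 3.18% of all 11158 genes were, and nothing is read from a count that holds the chosen gene. On the lower side there were 0 of 7, where 2.48% of all genes were. The median log2 ratio of the members, with the chosen Robo3 among them, was 0.63, and that of all genes was 0.15. TMM scaling, which centres the bulk of genes, lowered every ratio over all nuclei by 0.10 and moved no member across 2-fold.

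**Figure D1:**
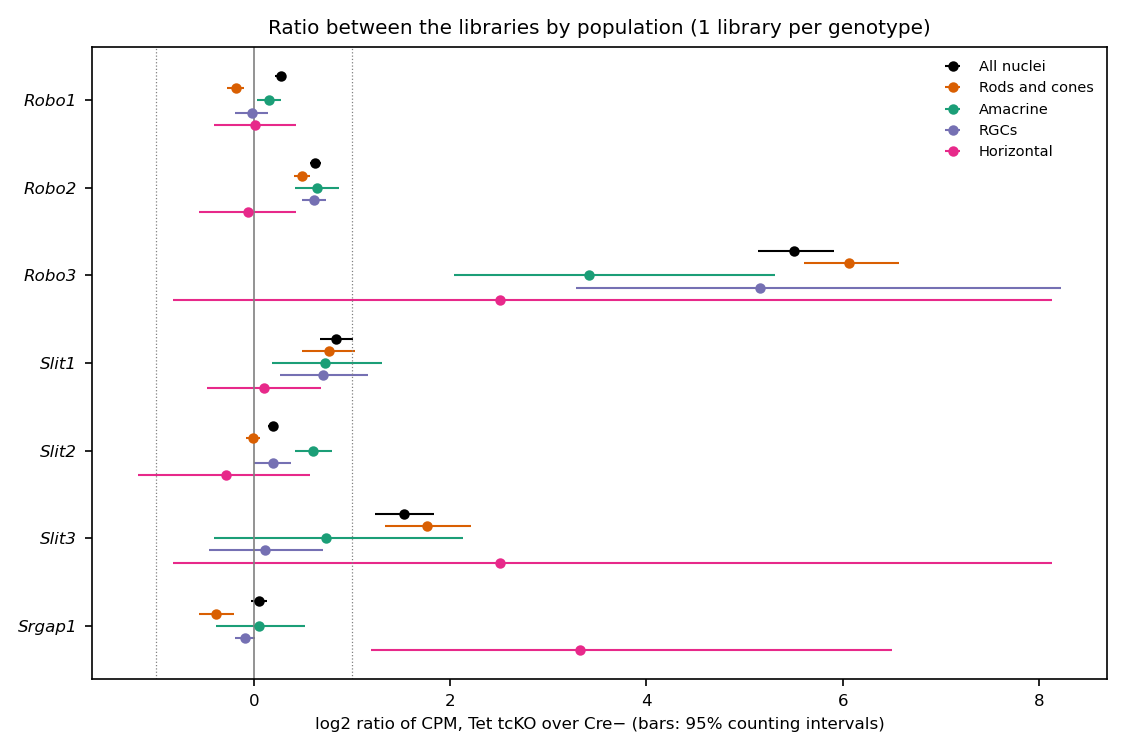
The log2 ratio of CPM in Tet tcKO over Cre- for the 7 genes (horizontal axis) in all nuclei and in 4 populations (colours). Points are ratios of summed UMIs, bars are 95% counting intervals, dotted lines mark 2-fold, and Robo3 lies to the right of the other genes in all nuclei, at 5.51, and in rods and cones, at 6.07.

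Counts per gene cannot be compared between genes without length, and nuclear RNA holds introns, so levels were also divided by gene span. Per kb of span, Robo3 was at 0.284 CPM in Cre- against 12.9 CPM in Tet tcKO. Slit2, the next highest of the set on that scale in Tet tcKO, was at 1.29 and 1.47 CPM per kb, and Srgap1 at 0.696 and 0.721. Robo1 was at 0.490 and 0.592, Robo2 at 0.198 and 0.305, Slit1 at 0.243 and 0.434, and Slit3 at 0.0172 and 0.0498 CPM per kb. How far a 3′ kit counts introns in proportion to span was not tested.

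Classes below are the authors' annotation of clusters, which were built on expression of all genes, these 7 included, so levels by class are a description. Robo3 was among the 10 leading genes of Tet tcKO cone clusters 48, 50, 51, 53, 54 and 55, Srgap1 of RGC clusters 2, 8 and 31, and Robo1 of amacrine cluster 12. Marker lists were used to check the annotation. In amacrine, RGC, horizontal and Müller glial clusters no cluster had, among its 10 leading genes, an excess of foreign markers over its own. This failed in 4 of 9 bipolar, 1 of 9 cone and 2 of 14 rod clusters. A cluster with no marker of any class among its leading genes also passed. Amacrine clusters 12 and 27, Müller glial cluster 37 and bipolar cluster 43 were among these, so passing does not by itself bear out a label. The failing cone cluster, cluster 11, held 264 of the 265 Cre- cone nuclei, and Cre- cone nuclei carried the 10 rod markers at 14033 CPM, above the 11222 CPM in Cre- rods, and the 10 cone markers at 1669 CPM. The data thus go against the cone label in Cre-. Rods and cones were therefore compared between genotypes only when pooled. Bipolar nuclei were not compared between genotypes, and their levels within a library are given under the annotated name.

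In the pooled rods and cones the sums of the lists moved with genotype. The 10 rod markers summed to 11604 CPM in Cre- against 5715 CPM in Tet tcKO, and the 10 cone markers to 1458 and 6032 CPM. All but 6 of the Tet tcKO nuclei in this pool were annotated as cones, and 5214 of the 5479 Cre- nuclei as rods. Over all nuclei 9 of the 10 rod markers were lower by 2-fold or more, and Sag by less (-0.51). Of the 10 cone markers 8 were higher by 2-fold or more, Opn1mw by less (0.44), and Pde6h was lower (-1.38). Cngb3 was the highest cone marker in Tet tcKO, at 1909 CPM against 229 CPM in Cre-. Robo3 was at 5.02 CPM (38 UMIs) in the Cre- pool and 336 CPM (2491 UMIs) in the Tet tcKO pool, for a log2 ratio of 6.07 (5.61 to 6.57). A change of cell identity and a change of Robo3 within an unchanged cell cannot be told apart in this pool.

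The other members in the rod and cone pool fell on both sides of 0. Slit3 was at 7.66 and 26.1 CPM with a log2 ratio of 1.77 (1.34 to 2.22), and Slit1 at 24.3 and 41.2 CPM, a ratio of 0.76 (0.49 to 1.03). Robo2 was at 256 and 360 CPM, for a log2 ratio of 0.49 (0.40 to 0.57), and Slit2 was nearly level at 431 and 428 CPM. Robo1 and Srgap1 were lower in Tet tcKO, at 284 against 249 CPM and at 80.5 against 61.7 CPM, and neither passed 2-fold. Past 2-fold higher were 2 of 7 members, Robo3 and Slit3, where 6.67% of the 11377 genes tested in the pool were. Robo3 is there by choice and both reached 10 CPM in the Tet tcKO pool alone, so nothing is read from this count. The median log2 ratio of all genes there was 0.23.

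Within Tet tcKO, Robo3 followed an order of classes. Its level was 336 CPM (323 to 350) in cones and 222 CPM (209 to 236) in bipolar-annotated nuclei. It was 107 CPM (61.3 to 174) in Müller glia, 76.4 CPM (65.6 to 88.5) in amacrine cells, 58.1 CPM (48.4 to 69.3) in RGCs and 36.0 CPM (9.82 to 92.2) in horizontal cells. The interval of cones stood apart from those of all lower classes, and each neighbouring pair from Müller glia to horizontal cells overlapped. The bipolar value is no level of 1 class. The annotated clusters 22, 35, 39 and 41, with a cone marker and no bipolar marker among their leading genes, held Robo3 at 443, 234, 191 and 326 CPM. Clusters 42 and 43 passed the check, cluster 43 without a marker of any class, and held it at 163 and 144 CPM. Of the 16 Müller glial Robo3 UMIs, 12 lay in cluster 37, which carried the cone markers at 4686 CPM. Cones held 65.5% of all Tet tcKO Robo3 UMIs and 44.6% of all UMIs. In Cre- no class exceeded 7.16 CPM, and every neighbouring pair in the order overlapped.

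**Figure D2:**
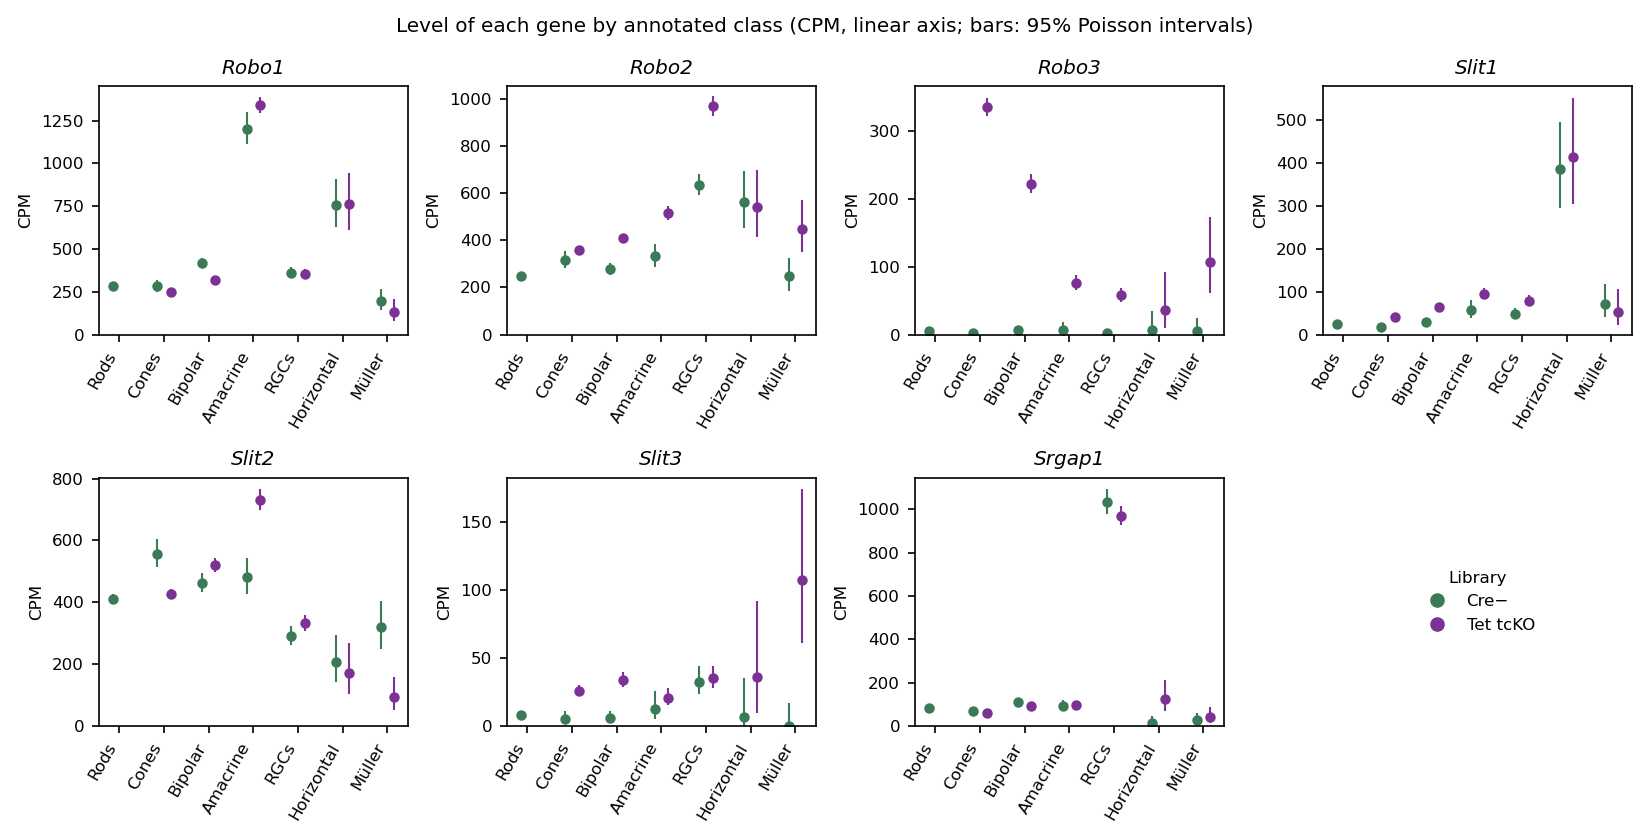
The level of each gene in CPM (vertical axis, linear, starting at 0) in the annotated classes of the Cre- (green) and Tet tcKO (purple) libraries, with 95% Poisson intervals. Robo3 is near 0 in every Cre- class and highest in Tet tcKO cones at 336 CPM, Robo1 is highest in amacrine cells, Slit1 in horizontal cells and Srgap1 in RGCs in both libraries, and Tet tcKO rods are not drawn because only 6 nuclei were annotated.

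Robo3 was spread over most Tet tcKO cone clusters. Of the 24 Tet tcKO clusters with 30 nuclei or more, Robo3 was detected in all, between 36.0 CPM in horizontal cluster 18 and 443 CPM in cluster 22. Cluster 22 was annotated as bipolar, but the cone channel gene Cngb3 and Prdm1, a factor known from photoreceptor precursors, led it, and it carried the cone markers at 12693 CPM, the most of any cluster. Among the cone clusters the level ran from 90.9 CPM in cluster 52 through 230 CPM in cluster 46 to 407 CPM in cluster 48. Cluster 52 was the low exception: it carried the summed cone markers at 5108 CPM, near the 5139 CPM of cluster 46. The cone marker Gnat2 alone was at 195 CPM in cluster 52, the lowest of the Tet tcKO cone clusters, and at 325 CPM in cluster 46. Of the 27 Cre- clusters, 6 held no Robo3 UMI and none exceeded 14.4 CPM (2.97 to 42.1; 3 UMIs), the value of rod-annotated cluster 36, which failed the marker check and overlapped rod cluster 9 at 13.2 CPM.

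**Figure D3:**
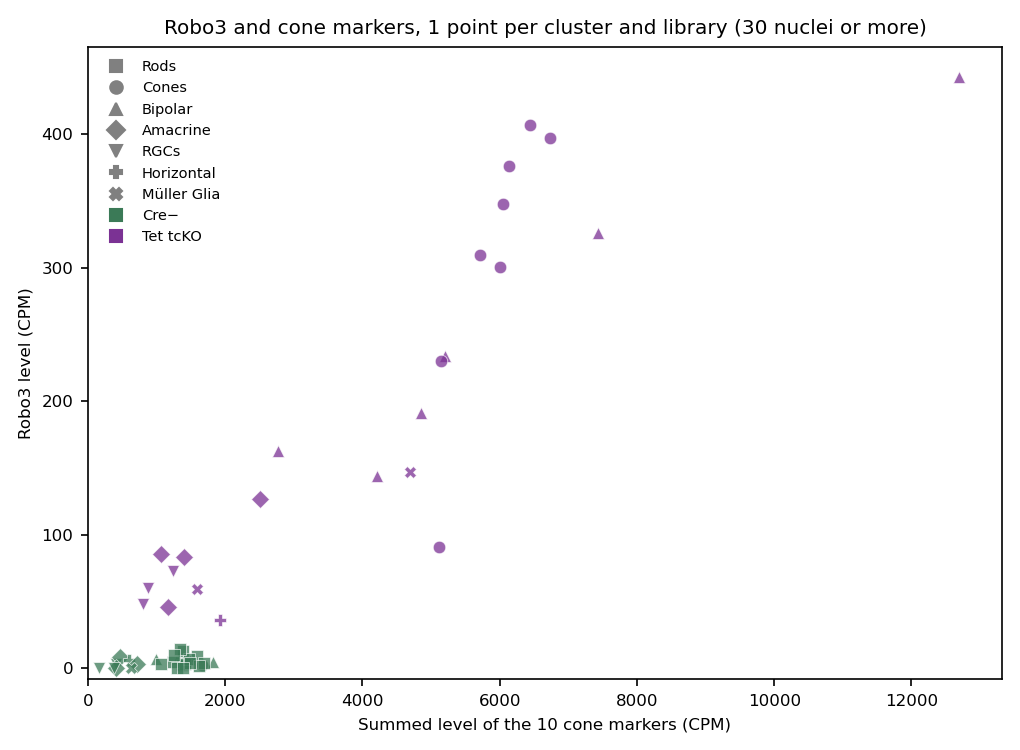
Robo3 level (vertical axis, CPM) against the summed level of 10 cone markers (horizontal axis, CPM), 1 point per cluster and library with 30 nuclei or more, coloured by library and shaped by annotated class. Tet tcKO clusters lie between 36.0 and 443 CPM of Robo3 and are mostly higher where cone markers are higher. Exceptions include cone cluster 52 at 90.9 CPM and horizontal cluster 18, at 36.0 CPM with cone markers at 1927 CPM. All Cre- clusters lie at 14.4 CPM or less.

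Free RNA from lysed cells enters droplets of every class and keeps its genes in 1 ratio, so Robo3 UMIs were set beside the UMIs of the 10 cone markers. In Tet tcKO there were 5.57 (5.35 to 5.80) Robo3 UMIs per 100 cone marker UMIs in cones, 5.10 (4.36 to 5.92) in amacrine cells and 6.23 (5.16 to 7.48) in RGCs. The amacrine and RGC ratios both overlapped that of cones. Horizontal cells, at 1.87 (0.505 to 4.86; 4 Robo3 UMIs), lay below the ratio of cones. Müller glia, at 3.27 (1.85 to 5.36), only just overlapped it, bipolar nuclei were lower at 3.98 (3.73 to 4.24), and cluster 52 stood lowest of the cone clusters at 1.78 (1.27 to 2.43). In Cre- rods and cones the ratio was 0.344 (0.243 to 0.472). These ratios depend on the markers summed. With the cone marker Gnat2 alone, Robo3 was at 336 and Gnat2 at 515 CPM in Tet tcKO cones. The same pair was 222 and 245 CPM in bipolar nuclei, 76.4 and 81.1 in amacrine cells and 58.1 and 60.9 in RGCs. In Müller glia it was 107 and 241 CPM, and in horizontal cells 36.0 and 90.1. On that scale bipolar, amacrine and RGC nuclei stood above cones, and Müller glia and horizontal cells below. Cone markers were thus also present in amacrine cells, at 569 CPM in Cre- against 1500 CPM in Tet tcKO, and in RGCs, at 306 and 933 CPM. The authors had run a step to remove free RNA, and how much remained was not tested.

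Robo3 in amacrine cells was at 7.16 CPM (4 UMIs) in Cre- and 76.4 CPM (179 UMIs) in Tet tcKO with a log2 ratio of 3.42 (2.03 to 5.31). In RGCs it was at 1.63 CPM (2 UMIs) and 58.1 CPM (124 UMIs), for a log2 ratio of 5.16 (3.28 to 8.22). The cone markers were also higher in Tet tcKO in both populations, but by less than Robo3. Per 100 cone marker UMIs there were 1.26 (0.341 to 3.25) Robo3 UMIs in Cre- amacrine cells, against 5.10 in Tet tcKO. In RGCs there were 0.532 (0.0642 to 1.93) in Cre- against 6.23 in Tet tcKO. The same ratio also differed between the libraries in the pooled rods and cones, at 0.344 in Cre- and 5.57 in Tet tcKO. How much of the Robo3 in amacrine cells and RGCs was free RNA was not tested. Robo3 was the only member past 2-fold in each, 1 of 7 in amacrine cells where 6.44% of 10831 genes were higher by that much, and 1 of 7 in RGCs where 3.53% of 10262 genes were. Since Robo3 was chosen for its higher Tet tcKO level and reached 10 CPM in both populations through that library alone, nothing is read from these counts. In horizontal cells there were 1 and 4 Robo3 UMIs, too few to place a ratio, with an interval from -0.83 to 8.13. In RGC cluster 2, which held over 100 nuclei in each library, 0 Robo3 UMIs were found in Cre- and 39 in Tet tcKO.

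Because Tet tcKO nuclei were deeper, shares of nuclei with a Robo3 UMI were compared after each nucleus was thinned to 500 UMIs. In Tet tcKO cones the share was 15.8% (14.6 to 17.1), and 48.8% before thinning. In Tet tcKO bipolar nuclei it was 9.82% (8.43 to 11.4), in amacrine cells 3.55% (2.51 to 4.86) and in RGCs 2.70% (1.63 to 4.18). Amacrine cells and RGCs should carry few cone transcripts, and the share in cones stood above theirs. In Müller glia the share was 5.88% (2.19 to 12.4), below that of cones and overlapping that of bipolar nuclei. The bipolar share includes the 4 clusters that failed the marker check. In Cre- rods the share was 0.230% (0.119 to 0.402), and 0 of 567 Cre- RGCs held a UMI, with an upper limit of 0.648%. Before thinning, median depths were 1715 UMIs in Tet tcKO cones, 1736 in amacrine cells and 2381 in RGCs.

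**Figure D4:**
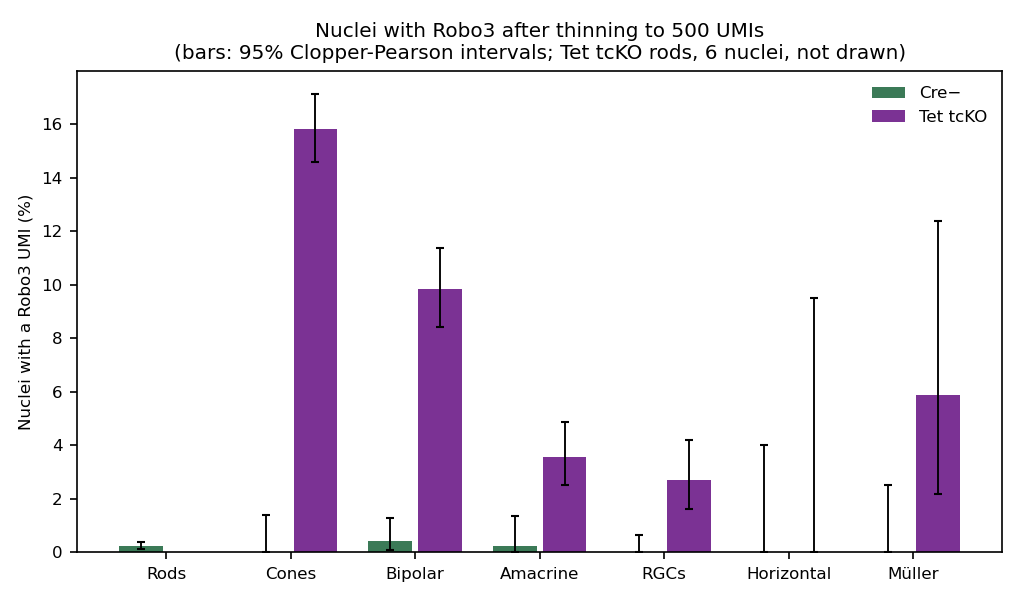
Share of nuclei with at least 1 Robo3 UMI (vertical axis, percent) by annotated class after thinning to 500 UMIs, with 95% Clopper-Pearson intervals, in Cre- (green) and Tet tcKO (purple). Tet tcKO cones stand highest at 15.8%, nuclei annotated as bipolar, 4 clusters of which failed the marker check, are at 9.82%, and every Cre- class is below 1%.

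No single nucleus carried the Robo3 difference. In Tet tcKO 1663 nuclei had 1 Robo3 UMI, 534 had 2, 181 had 3 and 113 had 4 or more, and the highest was 9 in a cone nucleus. In Cre- 50 nuclei had 1, 4 had 2 and none had more. Among thinned Tet tcKO rods and cones, other genes were found in similar shares of nuclei with and without Robo3. Slit2 was found in 17.6% (14.4 to 21.2) of 511 nuclei with Robo3 and in 20.1% (18.7 to 21.7) of 2720 without, and Robo2 in 15.1% and 16.3%. The cone marker Arr3 was found in 63.2% (58.9 to 67.4) and 63.3% (61.5 to 65.1), and the rod factor Nrl in 13.5% (10.7 to 16.8) and 10.1% (9.00 to 11.3). All of these intervals overlapped. Before thinning, 1576 of these 3231 nuclei held a Robo3 UMI, so many of the nuclei counted as without Robo3 had carried it. The split thus rests largely on which UMIs were drawn, and nothing is read from the overlap.

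Robo1 had its highest class level in amacrine cells. It was at 1203 CPM (1114 to 1298) in Cre- amacrine cells and 1339 CPM (1293 to 1387) in Tet tcKO, above horizontal cells at 758 and 766 CPM in each library. In Cre- bipolar-annotated nuclei were next at 418 CPM (388 to 449), overlapping RGCs at 362 CPM (329 to 397), and in Tet tcKO RGCs were next at 356 CPM. The levels in rods (284 CPM) and cones (282 CPM) of Cre- overlapped each other. Amacrine cells were not uniform: cluster 13, led by Chat and Slc5a7, which mark cholinergic starburst cells, held Robo1 at 206 CPM in Cre- against 124 CPM in Tet tcKO. In the same libraries amacrine cluster 24 held it at 1483 and 1162 CPM, and the highest cluster, cluster 12, at 1882 CPM in Tet tcKO. The log2 ratio was 0.15 (0.03 to 0.28) over amacrine cells, but -0.45 with each gene counted once per nucleus. It was -0.35 (-0.68 to -0.01) in cluster 24 and -0.74 (-1.54 to 0.09) in cluster 13, the latter from 24 and 32 UMIs.

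The Robo1 ratio over all nuclei moved with the class shares. Amacrine cells held 16.1% of Robo1 UMIs in Cre- and 43.2% in Tet tcKO, while their share of all UMIs was 4.85% and 14.1%. When both libraries were given the Cre- class shares, the log2 ratio over all nuclei changed from 0.27 to -0.14. For Robo2 the same step gave 0.53 in place of 0.63. The step relies on the annotated classes, and 4 of 9 bipolar clusters failed the marker check.

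Robo2 was highest in RGCs, the neurons that send axons to the brain. It was at 634 CPM (590 to 680) in Cre- RGCs and 969 CPM (928 to 1012) in Tet tcKO with a log2 ratio of 0.61 (0.49 to 0.73). Horizontal cells were next at 562 and 540 CPM, and in Cre- their interval overlapped that of RGCs. Within RGCs the level depended on the cluster, at 428 CPM in cluster 8, which held 394 of 567 Cre- RGCs but 29 of Tet tcKO, and at 1164 CPM in cluster 15, which held 217 Tet tcKO and 4 Cre- nuclei. In clusters present in both libraries the difference was smaller: cluster 2 was at 883 and 960 CPM, for a log2 ratio of 0.12 (-0.05 to 0.30), and cluster 31 at 719 and 703 CPM, a ratio of -0.03 (-0.43 to 0.39). Amacrine cells had Robo2 at 331 and 516 CPM, a ratio of 0.64 (0.41 to 0.87). The amacrine clusters with 30 nuclei or more in each library, 13 and 24, differed in direction, with wide intervals. Cluster 13, at 447 and 546 CPM, had a ratio of 0.29 (-0.18 to 0.78). Cluster 24, at 421 and 353 CPM, had a ratio of -0.25 (-0.87 to 0.42).

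Slit1 was highest in horizontal cells, the interneurons of the outer plexiform layer. Its level was 385 CPM (295 to 495; 61 UMIs in 90 nuclei) in Cre- and 414 CPM (303 to 553; 46 UMIs in 37 nuclei) in Tet tcKO with a log2 ratio of 0.10 (-0.48 to 0.68). No other class reached 100 CPM in either library. Amacrine cells were at 57.3 and 94.3 CPM and RGCs at 48.0 and 78.3 CPM, with ratios of 0.72 (0.18 to 1.30) and 0.71 (0.27 to 1.16). In Cre- a nucleus annotated as a rod alone held 19 of the 402 Slit1 UMIs.

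Slit2 was spread over all classes. In Cre- its class levels ran from 208 CPM in horizontal cells to 558 CPM (513 to 605) in nuclei annotated as cones, the label that the markers go against, and the latter overlapped amacrine cells. In Tet tcKO amacrine cells were highest at 732 CPM (698 to 768), against 482 CPM (426 to 543) in Cre-, for a log2 ratio of 0.60 (0.42 to 0.80). The starburst-led cluster 13 was at 456 and 837 CPM, a ratio of 0.88 (0.44 to 1.34), while cluster 24 was at 556 and 571 CPM. Tet tcKO bipolar cluster 42, led by Grik1, an OFF bipolar glutamate receptor gene, was highest of all clusters with 30 nuclei or more at 980 CPM. In Müller glia, which carry Slit2 at 320 CPM (250 to 403) in Cre- and 93.8 CPM (51.3 to 157) in Tet tcKO, the libraries filled different clusters, mostly cluster 14 in Cre- and clusters 37 and 30 in Tet tcKO.

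Slit3 had few counts in every class. In Cre- it was highest in RGCs at 32.5 CPM (23.2 to 44.3), and its level there in Tet tcKO, 35.2 CPM (27.7 to 44.1), was close, with a log2 ratio of 0.11 (-0.46 to 0.70). Outside RGCs the Tet tcKO levels were 26.1 CPM in cones, 34.0 CPM in bipolar nuclei and 107 CPM (61.3 to 174; 16 UMIs) in Müller glia. In Cre- Müller glia 0 UMIs of Slit3 were found, where counting error allows up to 16.6 CPM. After thinning, 1.52% (1.12 to 2.00) of Tet tcKO and 0.402% (0.252 to 0.607) of Cre- rod and cone nuclei held Slit3. No nucleus held more than 7 Slit3 UMIs.

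Srgap1 was highest in RGCs in both libraries. It was at 1034 CPM (978 to 1092) in Cre- RGCs and 971 CPM (930 to 1014) in Tet tcKO with a log2 ratio of -0.09 (-0.19 to 0.01). The next class was bipolar cells at 109 CPM in Cre- and horizontal cells at 126 CPM in Tet tcKO. All RGC clusters with 30 nuclei or more held it in a narrow range, from 957 to 1129 CPM in Cre- and from 898 to 1070 CPM in Tet tcKO. Horizontal cells held 2 and 14 Srgap1 UMIs, or 12.6 and 126 CPM, a ratio of 3.32 with a wide interval from 1.20 to 6.50. Of 7071 genes tested in horizontal cells, 14.9% were higher and 13.5% lower by 2-fold or more. Robo2 and Srgap1 thus had their highest level in the same class, the RGCs.

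The genes with patterns most like each member were found over 47 cluster sums, 25 of Cre- and 22 of Tet tcKO, by Pearson's r of log2(CPM + 10) among 11718 genes. The sums share libraries and depth, so r describes these sums only. For Robo3 they were Cltb (r = 0.96), which encodes a clathrin light chain, Gm1698 (0.95), the fatty acid binding protein gene Fabp7 (0.94), the nicotinic receptor subunit gene Chrnb4 (0.94) and Gm35229 (0.94). All 5 were higher in Tet tcKO over all nuclei, as their choice by likeness to Robo3 over sums of both libraries implies, with log2 ratios from 2.22 for Cltb to 6.99 for Fabp7. All but Cltb rested on 5 to 15 UMIs in Cre-. Over the Tet tcKO sums alone, Cltb (0.98) was again first, followed by Impdh1, Agpat3, Crocc and Gckr, so 1 of 5 was shared. Srgap1 was most like Prune2 (0.95), Tmem163 and the RGC marker Rbpms (0.93). Robo2 was most like Pcdh9 (0.91), Luc7l2 and the netrin receptor gene Dcc (0.87), and Robo1 most like Nrg1 (0.85), Marchf3 and Kif26b. The ligands had less close partners, Hivep3 (0.75) for Slit1, Cadps (0.73) for Slit2 and Wwc1 (0.78) for Slit3.

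Around Robo3 no tested neighbour passed 2-fold. Of 16 genes of the table within 250 kb, 5 reached 10 CPM, and all 5 stayed under 2-fold. Their log2 ratios were between -0.32 for Ccdc15 and 0.50 for Msantd2. Robo4, an endothelial Robo gene that ends just beyond Robo3 on the other strand, was at 2.69 and 0.904 CPM (31 and 15 UMIs). Around Slit3, Wwc1, also its nearest gene by pattern, had a log2 ratio of 1.27 (1.06 to 1.48), and of the other 2 neighbours at 10 CPM neither passed 2-fold.

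**Figure D5:**
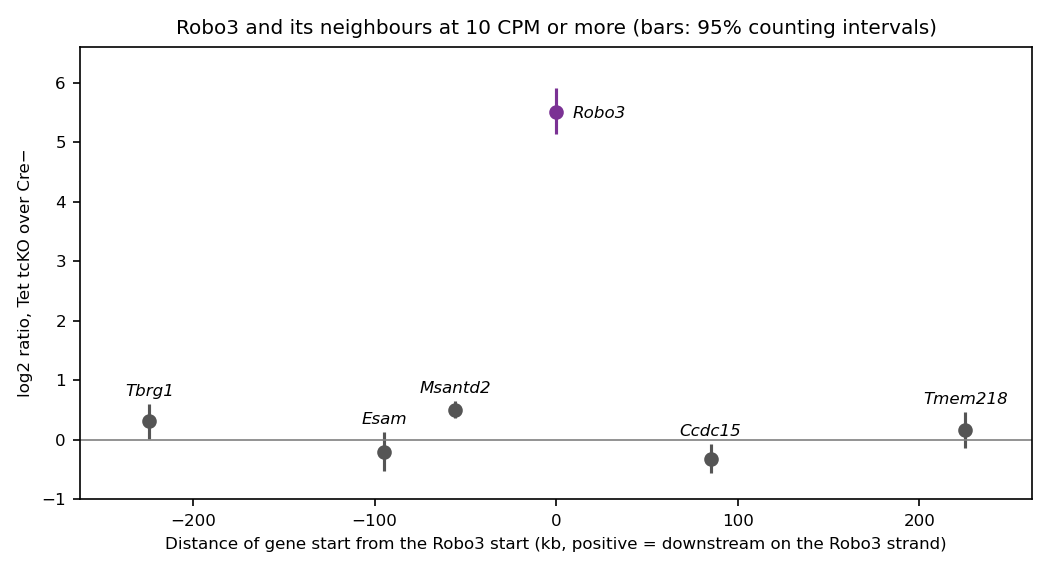
The log2 ratio of Tet tcKO over Cre- in all nuclei (vertical axis) for Robo3 and the 5 genes within 250 kb that reached 10 CPM, by the distance of each gene start from the Robo3 start in kb (horizontal axis, positive values downstream on the Robo3 strand). Bars are 95% counting intervals, and the neighbours lie between -0.32 and 0.50 where Robo3 lies at 5.51.

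Of 51 further receptors, ligands, heparan sulfate genes, signalling proteins and turnover factors, 46 reached 10 CPM, and 2 were higher and 1 lower in Tet tcKO by 2-fold or more. With 3.18% of all genes higher and 2.48% lower, counts this small are no result about the pathway. Their median log2 ratio was 0.31, against 0.15 over all genes. Those higher were Flrt3 (9.56 and 21.2 CPM, ratio 1.15, 0.84 to 1.47) and Flrt2 (29.6 and 59.8 CPM, ratio 1.01), membrane proteins of which FLRT3 is known to bind ROBO1. Next was the netrin receptor Unc5c at 180 and 354 CPM, a ratio of 0.98. The 1 lower gene was Adam10, a protease that cleaves Robo receptors, at 131 and 64.8 CPM, a ratio of -1.02. The ubiquitin ligase Nedd4l (-0.61) and Usp33, a deubiquitinase known to act on ROBO1 (-0.54), came next. Among 9 heparan sulfate genes, whose sugar chains Slits need for binding, and 21 signalling genes, 0 passed 2-fold in either direction, which so few genes cannot set apart from the shares over all genes.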

How the data were processed

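Single-nucleus RNA-seq of whole retina was analysed from 1 Cre- and 1 Tet tcKO library. The authors captured polyA RNA of nuclei with a PIPseq 3′ kit, aligned reads to GRCm39 with pipseeker 3.3.0, removed ambient RNA with CellBender 0.3.0 at a cell probability of 0.99, and filtered nuclei on their transcripts (500 to 10000) and on a mitochondrial share below 20%. Values of the deposited matrices are UMI counts, whole numbers for each gene in each nucleus, and the transcript totals of the deposited cell tables are counts too. Cluster numbers and class names in those tables are the authors' annotation. The gene table deposited by the authors holds the symbol of each gene and the number of nuclei with it. It also holds a signal per genotype that the authors averaged over nuclei, and the cell tables hold a size factor ratio by the authors, neither of which entered a level.

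The 7 members, the pathway lists and the marker lists were chosen with earlier results of these data known. Genes named were the members, the 3 highest and 3 lowest of the pathway lists at 10 CPM or more, the genes most like each member by pattern (5 for Robo3, 3 for the others) and the neighbours within 250 kb. A cluster's leading genes and single neighbours were named after their values were seen.

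UMIs were summed over a population and divided by the sum of all genes, as CPM. The exact Poisson interval of a level, the conditional binomial interval of a ratio and the Clopper-Pearson interval of a share, all at 95%, cover counting error only. Ratios with 0 UMIs on 1 side used 3 counts in its place, and genes with 3 UMIs or fewer on both sides got no ratio. A 2-fold difference stood in for a call, among genes that reached 10 CPM on either side. The study's own model over single nuclei treats nuclei as replicates and was not repeated. Doublets were not filtered, and leaving out the 5% of nuclei with the highest Scrublet score (scanpy 1.11.5) was an alternative, as were TMM and median of ratios scaling, counting each gene once per nucleus, nuclei with 1000 UMIs or more, and equal class shares. Thinning to 500 UMIs left out 0 nuclei. Gene spans and promoter windows were read from the GRCm39 genome and its annotation. Python 3.11.15, numpy 2.4.6, scipy 1.17.1 and pandas 2.3.3 were used, and the steps were tested on simulated data.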

Additional observations from a re-analysis of the deposited data

Results flagged for a closer look

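Srgap1 and Robo1 had ratios of opposite direction in different populations, and the differences between populations were not tested. Srgap1 had a log2 ratio of 3.32 in horizontal cells, from 2 and 14 UMIs, and -0.38 in rods and cones. In horizontal cells 14.9% of 7071 genes were higher by 2-fold or more. Robo1 had a log2 ratio of 0.15 in amacrine cells and -0.19 in rods and cones. Counting a gene once per nucleus gave Robo1 ratios of -0.45 and -0.34, of the same direction.

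The deposited gene table counted more nuclei with each member than the deposited matrices hold. The excess was 742 nuclei for Robo1, 765 for Robo2 and 272 for Robo3. It was 158 for Slit1, 863 for Slit2 and 91 for Slit3, and 260 for Srgap1. Table counts were between 1.10 (Srgap1) and 1.17 (Slit3) times those of the matrices, where the median over 13574 genes in 100 nuclei or more was 1.15. The largest value in the table was 15735 nuclei, and the matrices hold 14123. Which nuclei the table counted beyond the matrices was not tested, and all levels above rest on the matrices.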

How the results depend on the processing

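No paired analysis was possible because each genotype had 1 library. Of 498 values under alternatives 438 were kept and 60 moved. Among these were 453 log2 ratios of members, of which 412 moved by less than their counting interval and 41 by more. The other 45 were counts, shares and likeness values, of which 26 were kept and 19 moved, with likeness judged by the number of genes shared. In all, 0 changed the sign of a difference past 2-fold, while 49 log2 ratios of members under 2-fold changed sign. The number of members past 2-fold over all nuclei was 2 higher and 0 lower under each alternative. Why values moved was not tested. Over all nuclei, TMM gave log2 ratios of 0.17 for Robo1, 0.52 for Robo2, 0.091 for Slit2 and -0.052 for Srgap1, and median of ratios gave 0.16, 0.52, 0.088 and -0.055. With each gene counted once per nucleus, Robo1 was at -0.26, Robo2 at 0.21, Robo3 at 5.07, Slit2 at -0.22 and Srgap1 at -0.12, and Robo3 in rods and cones at 5.50. With nuclei of 1000 UMIs or more, Robo2 was at 0.56 and Srgap1 at -0.083. With Cre- class shares in both libraries, Robo1 was at -0.14, Robo2 at 0.53, Slit2 at 0.063 and Srgap1 at -0.16.

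Without thinning, the share of nuclei with Robo3 was 0.657% in Cre- rods and cones, and 48.8%, 14.8% and 14.1% in Tet tcKO rods and cones, amacrine cells and RGCs. At a minimum of 1 CPM, 3 pathway genes were higher and 2 lower by 2-fold or more. Of the 5 genes most like Robo3, 3 were shared with a pseudocount of 1 CPM, 2 with Spearman's rho and 1 over the Tet tcKO clusters alone, the last chosen after seeing the data. Leaving rod cluster 32 out of the rod and cone pool gave 6.01 for Robo3 and 1.80 for Slit3. This was also chosen after seeing the data, because its leading genes held an RGC marker (Nefl) and no rod marker. Robo3 in Cre- amacrine cells, RGCs and horizontal cells rests on 4, 2 and 1 UMIs, which limits those ratios. Without the highest nucleus in each library the amacrine ratio was 4.38 and the RGC ratio 6.11.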
